A study of Mus musculus with 7 samples.

Results

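Wnt pathway genes were followed in RNA-Seq of mouse knee cartilage collected early after joint destabilization. They were 42 genes chosen by name, from ligands and receptors to secreted inhibitors and feedback targets, out of 55401 genes in the count table. The samples came from male C57BL/6J mice whose right knee underwent destabilization of the medial meniscus (DMM), a surgical model of posttraumatic osteoarthritis, at 10 weeks of age, with tissue taken 2 weeks later. By their labels 4 samples were wild type (WT) and 3 were Trpc1-/-, whereas the study's methods give the opposite numbers, and the labels were used. Trpc1-/- mice carry Trpc1tm1Lbi, an allele without exon 8 of the cation channel gene Trpc1, in every cell of the body. Their WT controls came from the same colony. RNA of several knees (2 to 3) was pooled into each sample, which held femoral and tibial cartilage and, per the study's methods, subchondral bone, so that all values are averages over several cell types. All 7 samples had undergone DMM, and sham-operated knees were not analysed here.

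Wnt ligands are secreted lipid-modified proteins that bind Frizzled receptors, either with the coreceptors LRP5 and LRP6, which leads to stabilization of β-catenin and transcription through TCF/LEF factors, or without them in β-catenin-independent branches. Secreted antagonists of the DKK, SFRP, and WIF families restrain the pathway outside the cell, and its own target genes Axin2, Nkd1, Nkd2, and Notum restrain it as feedback. In the joint, Wnt signaling is known for driving bone formation by osteoblasts, and both excessive and deficient β-catenin activity in chondrocytes is known to harm articular cartilage.

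Levels are given as CPM, counts scaled to a common library size, here by edgeR's TMM method, and differences as the log2 fold change (logFC) of Trpc1-/- over WT samples with its standard error (SE). Samples are called WT 1 to WT 4 and Trpc1-/- 1 to Trpc1-/- 3 after the replicate numbers in the labels. Total counts ranged from 52142451 in WT 1 to 118254070, and WT 1 stood apart, as it correlated with the others at 0.947 on average against 0.973 to 0.980 for the rest. WT 1 had a summed level of 2825 CPM over 7 skeletal muscle markers, against 142 to 471 CPM in WT 2 to 4. Trpc1-/- 1 to 3 lay between these, at 628, 1426, and 1850 CPM. Over 8 neutrophil markers WT 1 had 5384 CPM, against 13491 to 17081 CPM in WT 2 to 4 and 12623 to 16580 CPM in Trpc1-/- samples. The gene mt-Rnr2, a ribosomal RNA gene of mitochondria, accounted for 19.6% of the counts of WT 1, against 12.3% to 15.4% in all other samples. The targeted gene Trpc1 was at 4.33 to 4.83 CPM in WT and 3.04 to 3.79 CPM in Trpc1-/- samples, without overlap (logFC −0.44, adjusted P = 0.407 in edgeR's test), though reads of exon 8 cannot be told from those of its other exons in a count per gene. All 10 chondrocyte markers listed for a check of the tissue passed the filter on low counts. Their summed level was 5639 to 5945 CPM in WT samples and 3180, 5977, and 3416 CPM in Trpc1-/- 1 to 3, so that Trpc1-/- 2 lay at the WT level by this sum. Col2a1 alone was at 3266 CPM in Trpc1-/- 2. In that sample Chad (136 CPM) and Comp (464 CPM) lay below every WT sample (157 to 210 and 490 to 663 CPM). The other chondrocyte markers of Trpc1-/- 2 lay within the WT range. The summed levels of 10 erythroid markers were 18815 to 35940 CPM in WT and 41517 to 56920 CPM in Trpc1-/- samples, and those of 6 fibroblast and synovial lining markers were 701 to 1076 and 595 to 636 CPM. Of these 6, Prg4 had the highest level, at 389 to 724 CPM in WT and 323 to 388 CPM in Trpc1-/- samples. Only for Prg4 did the groups not overlap, whereas those of Pdgfra, Dpt, Thy1, Clec3b, and Pi16 did. In bulk samples of this kind, fewer cells of a type and less RNA per cell cannot be told apart.

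Most Wnt pathway genes had a lower mean in Trpc1-/- than in WT samples, and the differences were small. Of the 41 members that passed the filter on low counts, 37 were lower and 4 were higher, where 51.9% of all 16429 tested genes were lower. Their median logFC was −0.27, against −0.0088 over all tested genes, with a range from −0.78 for the ligand Wnt11 to 0.11 for the transcription factor Tcf7. In edgeR's quasi-likelihood test, 11 members had an unadjusted P under 0.05, or 26.8% of those tested, and all 11 were lower. Over all tested genes the share was 10.0%, with 5.49% lower and 4.51% higher. With Benjamini-Hochberg adjustment no member was called, and adjusted P values ran from 0.396 to 0.997, while 0% of all genes were called. DESeq2, the method of the study, called 1.79% of all genes and none of the members. By its unadjusted P, 13 of the 41 members were under 0.05, where the share of all tested genes was 12.6%. No member is therefore described as changed, and its values are given instead.

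**Figure D1:**
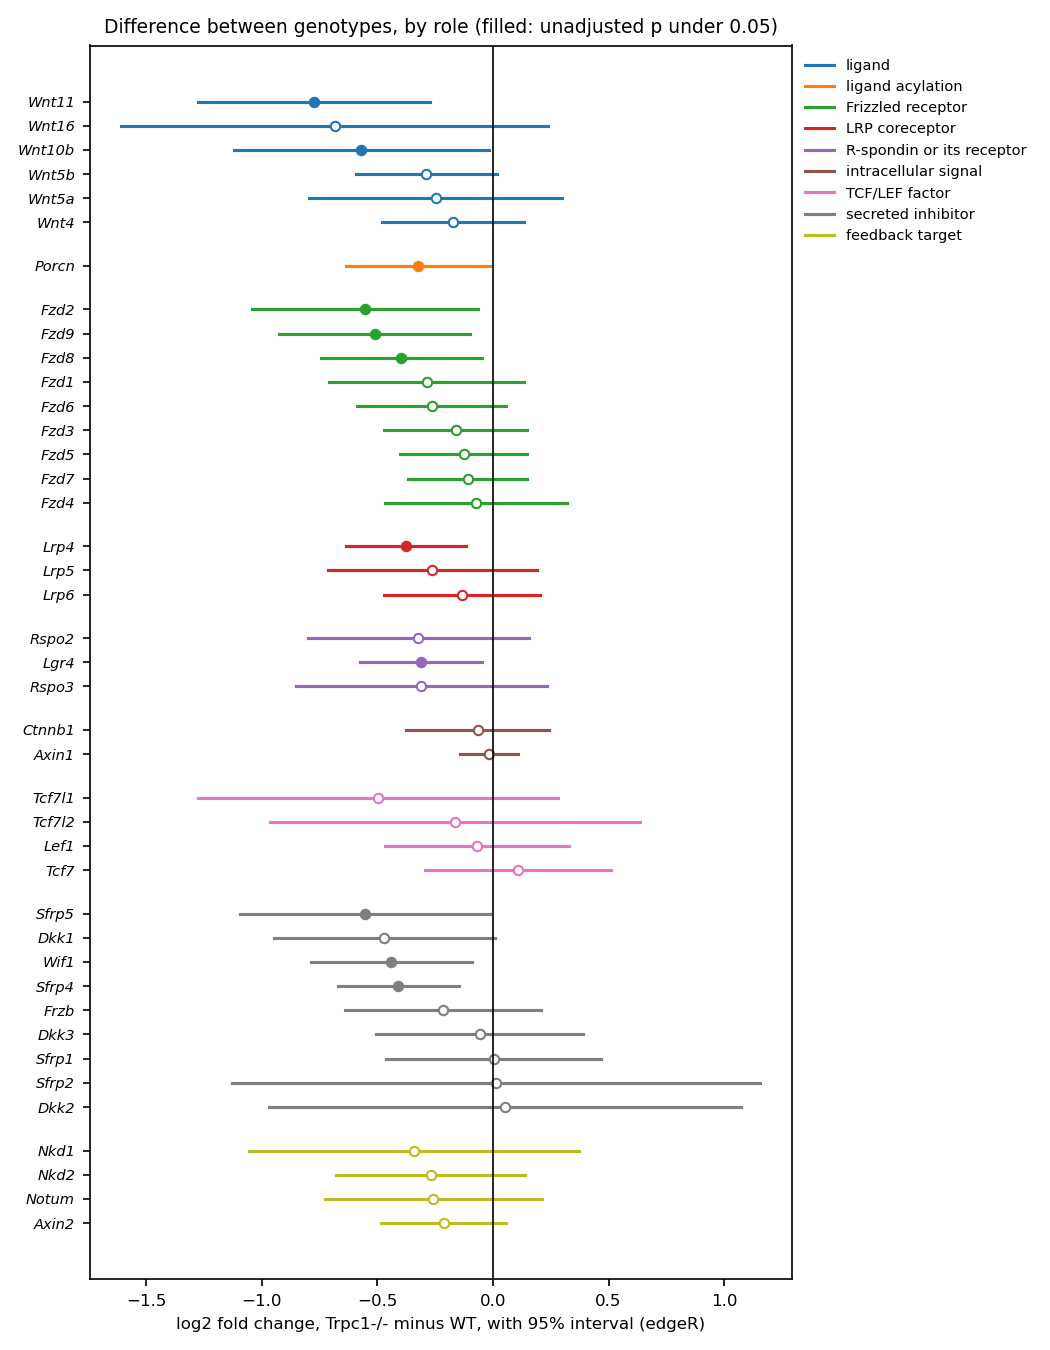
Difference between genotypes for the 41 tested members, grouped by role. The x axis is the log2 fold change of Trpc1-/- over WT samples, points are edgeR estimates, bars are 95% intervals, and filled points mark the 11 members with an unadjusted P under 0.05, which all lie left of 0.

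In 8 of the 41 members every Trpc1-/- sample lay below every WT sample (Wnt5b, Wnt11, Porcn, Fzd8, Fzd9, Lrp4, Axin1, and Sfrp4), where 6.42% of all tested genes did so. The opposite order was found in 0 members and in 7.15% of all genes. The count of members wholly below WT was 15 without WT 1, 14 without WT 4, and 19 without Trpc1-/- 2, where the shares of all genes were 11.4%, 11.0%, and 13.8%. Sfrp2 lay wholly above WT without WT 1, and so did Tcf7 without WT 4. The count of 11 members at an unadjusted P under 0.05 became 5 without WT 2, 6 without WT 3, 5 without Trpc1-/- 1, and 3 without Trpc1-/- 3, namely Lrp4, Sfrp4, and Wnt11. The corresponding shares of all genes were 6.30%, 10.3%, 5.19%, and 4.36%. Without WT 1, edgeR called Dkk1 alone among the members (adjusted P = 0.033), with 0.320% of all genes called, and DESeq2 called 7 members (Dkk1, Lrp4, Sfrp2, Sfrp4, Sfrp5, Wif1, and Wnt11), of which Sfrp2 was higher in Trpc1-/- samples, with 5.49% of all genes called. DESeq2 also called Wnt10b without WT 3 (0.820% of all genes), Nkd2 without WT 4 (1.72%), and Lgr4, Lrp4, and Wnt11 without Trpc1-/- 2 (2.27%).

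The 6 ligands were all lower on average, with a median logFC of −0.43. Per kilobase of exon, which allows genes to be compared, Wnt5b was the most abundant, with 1.38 to 2.07 CPM per kilobase and 24.2% to 37.4% of the summed ligand level in a sample. Wnt4, Wnt10b, Wnt5a, Wnt11, and Wnt16 followed in this order, and the ranges of neighbors overlapped throughout. The summed length-scaled ligand level was 5.36 to 7.05 CPM per kilobase in WT samples and 4.37 to 4.92 in Trpc1-/- samples, so the groups did not overlap. The sums for Porcn and for the secreted inhibitors did not overlap either, and those of the other 6 roles did.

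Wnt11, a ligand mostly linked to β-catenin-independent signaling, had the lowest logFC of all members. The gene (ENSMUSG00000015957) lies at chr7:98835112-98855195 (GRCm38, plus strand). It was at 3.31, 2.09, 2.32, and 2.29 CPM in WT 1 to 4 and at 1.34, 1.71, and 1.32 CPM in Trpc1-/- 1 to 3. WT 1 was the highest sample, and the groups stayed apart without it. The logFC was −0.78 (SE 0.22, unadjusted P = 0.008, adjusted P = 0.404 in edgeR's test), and the adjusted P in DESeq2 was 0.0551, the lowest of any member. Leaving out single samples gave logFC values from −0.91 to −0.62. Wnt5b, a relative of Wnt5a that acts in chondrocyte differentiation, was at 4.53, 4.66, 5.32, and 5.50 CPM in WT samples and at 4.20, 4.45, and 3.65 CPM in Trpc1-/- samples. The highest Trpc1-/- sample lay just below the lowest WT sample, and the logFC was −0.29 (SE 0.13, unadjusted P = 0.062, adjusted P = 0.509).

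Wnt11 and Wnt5b carry the TCF/LEF motif CTTTGAT in the bases just upstream of an annotated transcript start, and they are shown because no other matched member did. RefSeq promoter windows (GRCm38.p6) were found for 26 of the 42 members, with 35 windows in all, and the 250 bases upstream of each start were searched on both strands. The 16 members without a window were not searched. The search was planned for the feedback targets, and none of these had the motif in a matched window. The motif, or its reverse complement ATCAAAG, was in 2 of these 35 windows, or 5.71%, and in 3.21% of the 32851 windows of all genes. The window of Wnt11 spans chr7:98834862-98835111 on the plus strand, and that of Wnt5b spans chr6:119449387-119449636 on the minus strand, inside the annotated span of that gene. In the sequences below, written 5′ to 3′ along the gene, capitals mark the motif, which lies in reverse orientation from 51 bases upstream of the Wnt11 start and in forward orientation from 71 bases upstream of the Wnt5b start. A match of letters is no evidence of binding.
Wnt11: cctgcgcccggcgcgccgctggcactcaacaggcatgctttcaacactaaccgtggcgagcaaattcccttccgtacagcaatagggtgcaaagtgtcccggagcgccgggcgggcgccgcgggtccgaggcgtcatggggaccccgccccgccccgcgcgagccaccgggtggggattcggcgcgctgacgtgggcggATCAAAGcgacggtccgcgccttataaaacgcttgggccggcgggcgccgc
Wnt5b: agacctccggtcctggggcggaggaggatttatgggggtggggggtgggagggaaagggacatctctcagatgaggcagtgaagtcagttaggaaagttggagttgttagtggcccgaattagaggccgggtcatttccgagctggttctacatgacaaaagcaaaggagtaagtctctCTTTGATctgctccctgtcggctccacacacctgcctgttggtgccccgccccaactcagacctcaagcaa

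Wnt10b, a ligand that promotes osteoblast formation, was at 4.91, 4.02, 2.49, and 3.80 CPM in WT samples and at 2.44, 2.93, and 2.30 CPM in Trpc1-/- samples. WT 3 lay among the Trpc1-/- samples, and the other WT samples lay above them (logFC −0.57, SE 0.24, unadjusted P = 0.044, adjusted P = 0.492 in edgeR's test). Wnt16, which is known for responding to joint injury, was at 4.07 CPM in WT 1 but at 1.22 to 1.90 CPM in the other WT samples and 1.20 to 1.57 CPM in Trpc1-/- samples, and its logFC of −0.69 (SE 0.40) was −0.24 without WT 1. Wnt5a behaved alike, with 6.62 CPM in WT 1 against 3.54 to 4.19 CPM in WT 2 to 4, and its logFC of −0.25 (SE 0.24) was −0.014 without WT 1. For Wnt4 the logFC was −0.17 (SE 0.13), with overlapping groups.

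Porcn, the acyltransferase that attaches the lipid Wnt proteins need for secretion, was at 3.82, 3.63, 3.50, and 3.30 CPM in WT samples and at 2.68, 3.17, and 2.69 CPM in Trpc1-/- samples. All WT samples lay above all Trpc1-/- samples. The logFC was −0.32 (SE 0.13, unadjusted P = 0.044, adjusted P = 0.492 in edgeR's test).

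**Figure D2:**
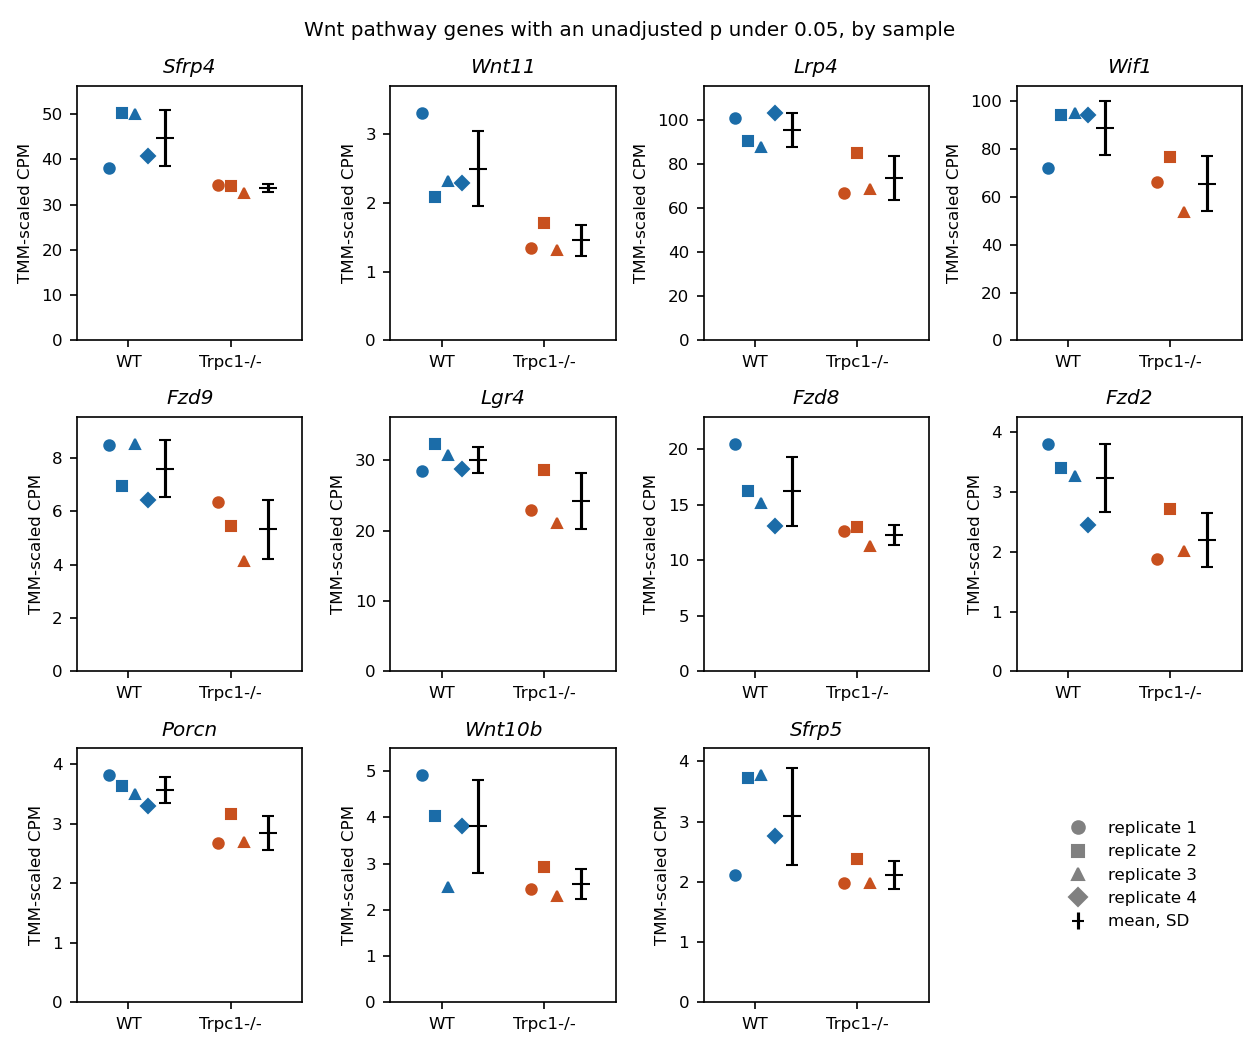
TMM-scaled CPM by sample for the 11 members with an unadjusted P under 0.05, ordered by P. Blue symbols are the 4 WT and orange symbols the 3 Trpc1-/- samples, with shapes for replicate numbers and black bars for the mean and SD, and the y axes start at 0. In Sfrp4, Wnt11, Lrp4, Fzd9, Fzd8, and Porcn the groups do not overlap.

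All 9 Frizzled receptors were lower on average in Trpc1-/- samples, from −0.07 for Fzd4 to −0.55 for Fzd2, and 3 of them had an unadjusted P under 0.05. WT 1 was the highest of all 7 samples for 8 of the 9. By length-scaled level the order was Fzd5, Fzd4, Fzd1, Fzd7, Fzd9, Fzd8, Fzd6, Fzd2, and Fzd3, from 3.43 to 4.83 CPM per kilobase for Fzd5 down to 0.307 to 0.413 for Fzd3. The neighbors at the low end (Fzd6 and Fzd2, Fzd2 and Fzd3) had ranges that did not overlap, and those of all other neighbors did. The summed Frizzled level was 20.3 to 29.5 CPM per kilobase in WT and 19.3 to 22.1 in Trpc1-/- samples, with overlap.

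Fzd9, a receptor known for its part in bone formation, was at 8.49, 6.94, 8.51, and 6.42 CPM in WT samples and at 6.35, 5.45, and 4.15 CPM in Trpc1-/- samples. Its groups did not overlap, by the narrow margin between WT 4 and Trpc1-/- 1, and the logFC was −0.51 (SE 0.18, unadjusted P = 0.021, adjusted P = 0.449). Fzd8 was at 20.4, 16.3, 15.1, and 13.0 CPM in WT samples and at 12.6, 13.0, and 11.3 CPM in Trpc1-/- samples. Here the lowest WT sample and the highest Trpc1-/- sample nearly coincided, and the logFC of −0.40 (SE 0.15, unadjusted P = 0.030, adjusted P = 0.468) was −0.27 without WT 1. Fzd2 was at 3.79, 3.41, 3.26, and 2.44 CPM in WT samples and at 1.87, 2.71, and 2.00 CPM in Trpc1-/- samples, with WT 4 below Trpc1-/- 2 (logFC −0.55, SE 0.21, unadjusted P = 0.031, adjusted P = 0.469). Fzd5, the most abundant Frizzled by length, was at 33.4, 28.9, 27.2, and 26.8 CPM in WT samples and at 23.7, 30.9, and 25.2 CPM in Trpc1-/- samples. Trpc1-/- 2 exceeded 3 of the 4 WT samples, and the logFC was −0.13 with a 95% interval from −0.40 to 0.15. The other Frizzled genes had overlapping groups and logFC values of −0.29 (Fzd1), −0.27 (Fzd6), −0.16 (Fzd3), −0.11 (Fzd7), and −0.07 (Fzd4), the last of which was 0.09 without WT 1. The span of the gene Gm27263 overlaps that of Fzd3 on the same strand, so the count of Fzd3 may be uncertain. Overlap was judged by whole gene spans here and below, and exons were not compared.

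Among the LRP coreceptors, Lrp4 differed most. LRP4 is the agrin receptor of the neuromuscular junction and, in bone, a partner through which sclerostin inhibits Wnt signaling, whereas LRP5 and LRP6 bind the ligands with Frizzled. Lrp4 (ENSMUSG00000027253, chr2:91457511-91513779, plus strand) was at 101, 90.4, 87.4, and 103 CPM in WT samples and at 66.7, 84.9, and 68.7 CPM in Trpc1-/- samples. The groups did not overlap, and Trpc1-/- 2 lay nearest to WT. The logFC was −0.38 (SE 0.11, unadjusted P = 0.010, adjusted P = 0.408 in edgeR's test, adjusted P = 0.0814 in DESeq2), and it was −0.50 without Trpc1-/- 2. For Lrp5 the logFC was −0.26 (SE 0.19), and it was −0.08 without WT 1, which had 67.7 CPM against 40.8 to 47.8 CPM in the other WT samples. Lrp6 was likewise highest in WT 1, at 131 CPM against 87.5 to 96.2 CPM in WT 2 to 4, and its logFC of −0.13 (SE 0.15) was 0.010 without that sample. Per kilobase, Lrp4 (6.35 to 9.80 CPM) and Lrp6 (6.40 to 9.56 CPM) overlapped, and Lrp5 (3.82 to 6.95 CPM) was below Lrp6 in all 7 samples. Their sum was 18.9 to 26.1 CPM per kilobase in WT and 16.9 to 20.3 in Trpc1-/- samples, with overlap.

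R-spondins raise the number of Frizzled receptors at the cell surface through receptors of the LGR family. Lgr4 was at 28.4, 32.3, 30.7, and 28.7 CPM in WT samples and at 22.9, 28.7, and 21.0 CPM in Trpc1-/- samples. Trpc1-/- 2 lay within the WT range and the other Trpc1-/- samples lay below it, with a logFC of −0.31 (SE 0.11, unadjusted P = 0.027, adjusted P = 0.456) that was −0.46 without Trpc1-/- 2. Rspo2 (logFC −0.32, SE 0.21) and Rspo3 (logFC −0.31, SE 0.23) were lower by a like amount with overlapping groups. The count of Rspo3 may be uncertain, because the span of Gm20276 overlaps it on the same strand. Rspo1 was the member below the filter and was not tested. It had 34, 56, 105, and 45 counts in WT samples and 54, 48, and 40 counts in Trpc1-/- samples, or 0.717, 0.530, 0.855, and 0.573 CPM against 0.441, 0.517, and 0.409 CPM, a narrow separation at a depth where 3 counts correspond to 0.0244 to 0.0632 CPM.

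Of the roles, the intracellular members had the median logFC nearest to 0, at −0.04. Ctnnb1, which encodes β-catenin, had the highest level of all members per kilobase (67.1 to 92.8 CPM). It was at 348, 463, 482, and 470 CPM in WT samples and at 421, 445, and 397 CPM in Trpc1-/- samples. WT 1 was the lowest sample, the Trpc1-/- samples lay between it and the other WT samples, and the logFC was −0.07 with a 95% interval from −0.38 to 0.24. The microRNA gene Mir7090 overlaps it on the same strand. Axin1, a scaffold of the complex that degrades β-catenin, was at 36.0 CPM in each of the 4 WT samples and at 35.6, 35.5, and 35.8 CPM in Trpc1-/- samples. The groups did not overlap, yet the logFC was −0.02 with a 95% interval from −0.14 to 0.11.

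The 4 TCF/LEF genes overlapped between the genotypes. Tcf7, the most abundant of them by length, had the highest logFC of the 4 members with a positive one. It was at 4.85, 4.83, 4.61, and 6.91 CPM in WT samples and at 5.07, 6.38, and 5.67 CPM in Trpc1-/- samples. All Trpc1-/- samples lay between WT 4 and the other WT samples, and the logFC was 0.11 with a 95% interval from −0.30 to 0.51. Tcf7l1 (logFC −0.50, SE 0.34) and Tcf7l2 (−0.17, SE 0.34) were highest in WT 1, and without it the logFC was −0.14 and 0.19. Lef1 had a logFC of −0.07 (SE 0.17). The spans of other genes overlap all 4 on the same strand, so their counts may be uncertain.

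**Figure D3:**
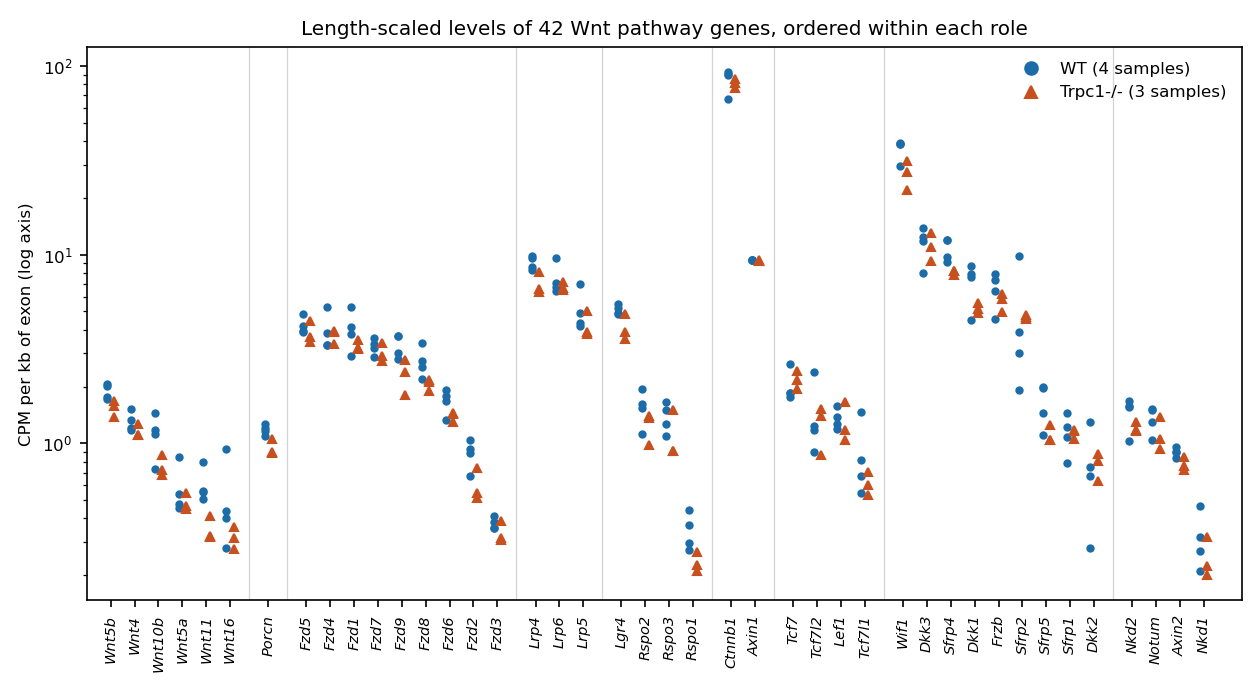
Length-scaled levels of the 42 members by sample, ordered within each role by the mean over all samples. The y axis is CPM per kilobase of exon on a log scale, with blue circles for WT and orange triangles for Trpc1-/- samples. Ctnnb1 (67.1 to 92.8) and the inhibitor Wif1 (22.0 to 39.1) lie above all other members, and Rspo1 is near the bottom.

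Among the 9 secreted inhibitors, 6 were lower and 3 were higher on average, and 3 (Sfrp4, Wif1, and Sfrp5) had an unadjusted P under 0.05. Their summed length-scaled level was 74.9 to 86.3 CPM per kilobase in WT and 56.7 to 72.3 in Trpc1-/- samples, without overlap. Wif1, which binds Wnt ligands directly and is expressed in cartilage, made up 38.8% to 51.7% of this sum. Dkk3, Sfrp4, Dkk1, and Frzb followed, with overlapping ranges, and Dkk2 was the lowest.

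Sfrp4 (ENSMUSG00000021319, chr13:19623104-19632994, plus strand), a decoy that binds Wnt ligands and whose loss thins cortical bone, had the smallest P of all members in edgeR's test. It was at 38.1, 50.2, 50.0, and 40.8 CPM in WT samples and at 34.4, 34.2, and 32.6 CPM in Trpc1-/- samples. The Trpc1-/- samples were close together and below all WT samples, with a logFC of −0.41 (SE 0.11, unadjusted P = 0.007, adjusted P = 0.396 in edgeR's test, adjusted P = 0.0710 in DESeq2). Single samples left out moved the logFC no further than −0.48 and −0.35. Wif1 was at 71.8, 94.2, 94.8, and 94.0 CPM in WT samples and at 66.3, 76.5, and 53.4 CPM in Trpc1-/- samples. WT 2 to 4 lay close together above all others, and WT 1 lay among the Trpc1-/- samples (logFC −0.44, SE 0.15, unadjusted P = 0.020, adjusted P = 0.442). Sfrp5 was at 2.11, 3.73, 3.77, and 2.76 CPM in WT samples and at 1.98, 2.38, and 1.97 CPM in Trpc1-/- samples, again with WT 1 among the Trpc1-/- samples (logFC −0.56, SE 0.23, unadjusted P = 0.045, adjusted P = 0.496).

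Dkk1, which blocks LRP5 and LRP6, was also lowest in WT 1 among the WT samples. It was at 11.0, 19.1, 21.1, and 18.4 CPM in WT samples and at 12.5, 13.4, and 11.9 CPM in Trpc1-/- samples. WT 1 was the lowest of all samples, whereas WT 2 to 4 lay above every Trpc1-/- sample, and the logFC of −0.47 (SE 0.21, adjusted P = 0.503) was −0.64 without WT 1. Sfrp2 ran the other way in WT 1. It was at 21.2 CPM in WT 1, at 8.41, 6.46, and 4.15 CPM in WT 2 to 4, and at 9.77, 10.3, and 10.1 CPM in Trpc1-/- samples. The Trpc1-/- samples hardly differed from each other and lay below WT 1 and above the rest, so that the logFC was 0.01 (SE 0.49) with WT 1 and 0.66 without it (adjusted P = 0.046 in DESeq2). For Frzb the logFC was −0.22 (SE 0.18), and for Dkk3, Sfrp1, and Dkk2 it was −0.06, 0.002, and 0.05, with overlapping groups.

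The feedback genes, which are transcribed in response to β-catenin, were all lower on average, and 0 of 4 had an unadjusted P under 0.05. Axin2 was at 4.57, 4.94, 5.28, and 4.96 CPM in WT samples and at 4.17, 4.64, and 3.97 CPM in Trpc1-/- samples. Only Trpc1-/- 2 reached the WT range, by a small margin over WT 1, and the logFC was −0.21 with a 95% interval from −0.48 to 0.06. Nkd2, which binds Dishevelled and was the most abundant of the 4 by length, was at 8.05, 7.62, 7.55, and 4.95 CPM in WT samples and at 5.65, 6.28, and 5.59 CPM in Trpc1-/- samples. WT 4 was the lowest sample and the other WT samples lay above all Trpc1-/- samples (logFC −0.27, SE 0.18, adjusted P = 0.601). Notum, an enzyme that removes the lipid from Wnt ligands, had a logFC of −0.26 (SE 0.20). Nkd1, whose count may be uncertain because the span of Gm45496 overlaps it, had one of −0.34 (SE 0.31).

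**Figure D4:**
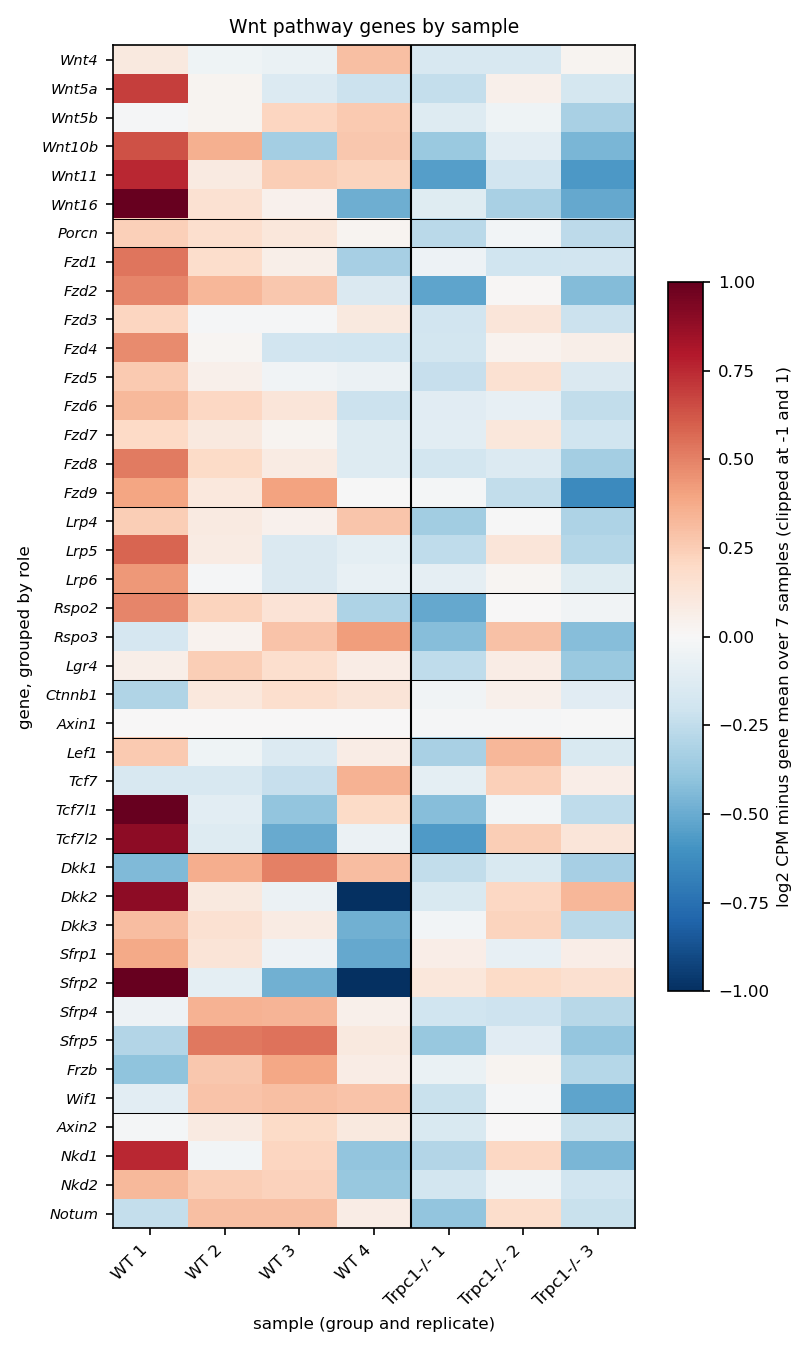
Each tested member's log2 CPM minus its mean over the 7 samples, by sample, with roles separated by horizontal lines and genotypes by a vertical line (color clipped at −1 and 1). WT 1 is the highest sample in 24 of the 41 members and the lowest in 3, and Trpc1-/- 2 is the highest Trpc1-/- sample in 32.

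The order of samples within the genotypes was uneven across the members. WT 1 was the highest of the 7 samples in 24 of the 41 members and the lowest in 3 (Ctnnb1, Dkk1, and Frzb), whereas over all tested genes it was the highest in 37.2% and the lowest in 38.0%. Without WT 1, 32 of 41 members were lower in Trpc1-/- samples, as were 50.3% of all genes, and the median logFC was −0.20, and Fzd4, Lrp6, Lef1, Tcf7l2, and Dkk3 turned from lower to higher. Trpc1-/- 2 was the highest Trpc1-/- sample in 32 of 41 members, against 36.4% of all genes, and the median logFC was −0.35 without it. The same sample had the chondrocyte marker sum of WT samples. Among Trpc1-/- samples it also had the highest osteoblast and osteocyte sum (1591 CPM) and the lowest erythroid sum (41517 CPM). All 10 chondrocyte, 8 osteoblast and osteocyte, and 6 fibroblast and synovial lining markers were lower on average in Trpc1-/- samples, with 3, 1, and 2 of them at an unadjusted P under 0.05, and all 10 erythroid markers were higher, with 9 at that threshold. Of the 6 endothelial markers, 5 were lower, 1 of them at that threshold. The markers of the remaining lists were all higher on average, namely 5 of adipocytes (3 at that threshold), 6 of T cells (2), 8 of neutrophils, 7 of B cells, and 7 of skeletal muscle (0 each). No marker was called after adjustment by edgeR. The part of these cell types in the Wnt pathway values was not tested. The numbers in the library names fall into the 1300s, which hold WT 1, WT 2, and all Trpc1-/- samples, and the 1700s, which hold WT 3 and WT 4 alone, and within the 1300s the median logFC was −0.38 with 39 of 41 members lower, against 51.0% of all genes.

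A further 83 genes of the pathway, from other ligands to planar cell polarity genes, were listed for comparison, of which 63 passed the filter and 20 did not. Of the 63, 52 were lower and 11 higher, and the median logFC was −0.16. In edgeR's test 7 of them, or 11.1%, had an unadjusted P under 0.05, and all 7 were lower. Over all tested genes the share was 10.0% in both directions together and 5.49% for lower genes. By edgeR's adjusted P, 0 were called. DESeq2 called Sost and Lgr6, 2 of the 63, against 1.79% of all genes. Every Trpc1-/- sample lay below every WT sample in 5 of the 63 (Lgr6, Sost, Dvl1, Pygo2, and Tnfrsf11b) and above in 1 (Csnk1a1), against 6.42% and 7.15% of all genes, and the 5 were 7.94% of the 63. Dkk4, Sp5, Wnt3, Wnt7a, and Wnt8b had 0 counts in all samples.

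Sost encodes sclerostin, the osteocyte product that binds LRP5, LRP6, and LRP4. It was at 26.8, 37.5, 43.0, and 37.0 CPM in WT samples and at 22.2, 23.0, and 19.4 CPM in Trpc1-/- samples. All Trpc1-/- samples lay below all WT samples, of which WT 1 was the lowest, and the logFC was −0.75 (SE 0.16, unadjusted P = 0.002, adjusted P = 0.381 in edgeR's test, adjusted P = 0.003 in DESeq2). DESeq2's call was lost without WT 2 (adjusted P = 0.067), Trpc1-/- 1 (0.052), or Trpc1-/- 3 (0.162), and without WT 1 edgeR called the gene as well (adjusted P = 0.021). Lgr6, an R-spondin receptor related to Lgr4, was at 23.6, 17.1, 16.0, and 20.6 CPM in WT samples and at 10.5, 13.8, and 10.6 CPM in Trpc1-/- samples. Again the groups did not overlap, and the difference was −0.73 on the logFC scale (SE 0.17), with an adjusted P of 0.395 by edgeR and of 0.010 by DESeq2. The DESeq2 call was lost without WT 4 (adjusted P = 0.053), Trpc1-/- 1 (0.203), or Trpc1-/- 3 (0.271). The summed level of the 8 osteoblast and osteocyte markers overlapped between the groups, at 1085 to 1910 CPM in WT and 1094 to 1591 CPM in Trpc1-/- samples. Taken singly, all 8 were lower on average, with logFC values from −0.16 (Ibsp) to −0.45 (Mepe). Phex alone had an unadjusted P under 0.05 in edgeR's test (0.040). The part of these markers' cells in the values of Sost was not tested.

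The other 5 genes at an unadjusted P under 0.05 were Pygo2, a nuclear partner of β-catenin (logFC −0.19, SE 0.06), the signal transducer Dvl1 (−0.32, SE 0.11), the corepressor Tle2 (−0.65, SE 0.28), the membrane protein Tpbg (−0.33, SE 0.14), and the DKK coreceptor Kremen1 (−0.32, SE 0.14). Their adjusted P values in edgeR's test were 0.426, 0.455, 0.499, 0.499, and 0.499.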

How the data were processed

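RNA-Seq of 4 WT and 3 Trpc1-/- samples was used. The authors depleted ribosomal RNA, sequenced stranded paired-end libraries, and, per their methods and processing notes, trimmed with cutadapt 2.5, aligned to GRCm38 with HISAT2 2.1.0, and ran StringTie 2.0.3, whose prepDE script gave the deposited estimated counts per gene, which are whole numbers and not normalized. A gene was kept if 2 or more samples exceeded 1 CPM (16429 of 55401). In R 4.3.3, counts were scaled by TMM and tested with edgeR 4.0.16 (quasi-likelihood, genotype alone, Benjamini-Hochberg adjustment over all tested genes, threshold 0.05). The study used DESeq2, which was run as an alternative here (1.42.0), beside limma-voom 3.58.1, DESeq2 size factors, other filters, the replicate block, the library numbers of the 1300s, and each sample left out. DESeq2 with each sample left out was added after seeing the data. Standard errors came from the F statistic and exon lengths and positions from GENCODE M21, and the fits were tested on simulated data.

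The 42 members and all lists were chosen with earlier results of these data known. Values were given in full for the member of each role with the highest length-scaled level, those at an unadjusted P under 0.05 in edgeR's test or an adjusted P under 0.05 in DESeq2, and the 3 with the smallest P. The other members were given by role, and other Wnt genes were named at an unadjusted P under 0.05 or by rule (Sost). Dkk1, Sfrp2, Wnt16, Wnt5a, Axin1, Axin2, and Lrp5 were described further after their values were seen, and so were genes named for counts. Wisp1 and Wisp2 were matched as Ccn4 and Ccn5. Total counts ran from 52142451 to 118254070, and 3 counts corresponded to 0.0244 to 0.0632 CPM, which covers counting error only. Samples pool different mice, and P values measure the spread between these samples. No sequences of proteins were used here.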

Additional observations from a re-analysis of the deposited data

Results flagged for a closer look

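In the 4 WT samples, the gap between the most extreme sample and its neighbor, as a share of the range, exceeded Dixon's 95% critical value in 5 of the 48 genes examined (41 members, Sost, and 6 other Wnt genes). Chance would flag about 1 in 20 such groups. WT 1 was low for Ctnnb1 (ratio 0.862), at 348 CPM against 463 CPM in the next sample, and for Wif1 (ratio 0.962), at 71.8 CPM against 94.0 CPM. WT 4 was high for Tcf7 (ratio 0.895), at 6.91 CPM against 4.85 CPM, and low for Nkd2 (ratio 0.840), at 4.95 CPM against 7.55 CPM. Among the other Wnt genes, WT 1 was high for Tle2 (ratio 0.832), at 20.5 CPM against 11.2 CPM. Groups of 3 were not examined in this way.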

How the results depend on the processing

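The median logFC of the members (−0.27) kept its sign under every alternative tried, from −0.38 within the 1300s to −0.20 without WT 1. It moved by less than the spread of the members' median between single samples (0.13 in log2). That is a loose limit, because the alternatives share most or all samples. With DESeq2 size factors the median logFC was −0.26 with 37 of 41 lower. No member was called after adjustment with edgeR, DESeq2, limma-voom, DESeq2 size factors, no filter, filterByExpr, or the replicate block. With 1 sample left out, edgeR called 0 to 1 members and DESeq2 0 to 7. The count at an unadjusted P under 0.05 (11) was 8 to 13 under these settings and 3 to 14 with each sample left out. For the other Wnt genes that count (7) was 11 with DESeq2, 12 within the 1300s, and 2 to 13 with each sample left out. Members without overlap (8) numbered 7 with DESeq2 size factors and 8 to 19 with each sample left out. Of 224 alternative values for the 16 members given in full, 1 changed sign, that of Ctnnb1, at 0.0512 within the 1300s, and the cause was not tested. Of these 16, 11 were chosen for an unadjusted P under 0.05 in the same samples, which favored stable signs. Outside the 16, Fzd4, Lrp6, Lef1, Tcf7l2, and Dkk3 changed sign without WT 1. Replicate numbers 1 to 3 were shared, but samples of the same number deviated from their groups with correlations of −0.348, −0.205, and −0.0439, so the numbers were not taken to pair samples, and with the replicate block (without WT 4) 10 members and 972 of all genes had an unadjusted P under 0.05, 40 of 41 were lower, and the median logFC was −0.31. With 4 and 3 samples, intervals were wide, most of all for Sfrp2 (SE 0.49), Dkk2 (SE 0.44), and Wnt16 (SE 0.40). Levels of Wnt11, Wnt16, and Nkd1 came near 1 CPM in some samples.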

Other observations

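Axin1 had the smallest spread among WT samples of all 16429 tested genes, with a coefficient of variation of 0.0458%, where its counts alone would give 1.89%. The gene was singled out after its values were seen. The median coefficient of variation among WT samples was 19.4% over the members and 14.4% over all tested genes, and Sfrp2 had the widest of the members, 76.0%.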
